A study of Mus musculus with 6 samples.

Results

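The genes described here are Mos and the kinases that carry its signal in the mouse oocyte: the MAP kinase kinases Map2k1 and Map2k2, the MAP kinase Mapk3, and the ribosomal S6 kinases Rps6ka1, Rps6ka2 and Rps6ka3. They were taken by symbol from the count tables, and all 7 were found among the 23284 symbols listed and passed the filter on low counts, as did 12935 symbols in all. RNA was sequenced from fully grown oocytes at the germinal vesicle (GV) stage, when the oocyte rests in prophase of its first meiotic division. Each library was made from 100 oocytes of females 4 to 6 weeks old, collected 48 hours after an injection of 5 IU of serum gonadotrophin from pregnant mares. The 3 Lsd1 KO libraries came from oocytes deleted for Lsd1, a histone demethylase gene now called Kdm1a, and the 3 Control libraries from oocytes of the control genotype. All were of mixed C57BL/6-129 strain. The sources used here do not give the transgene that deletes Lsd1, the alleles that the Control animals carry or whether a library pools several animals. The design calls the 3 libraries of a genotype biological replicates.

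In vertebrate oocytes the MAP kinase cascade starts with MOS, a germ cell kinase, in place of the RAF kinases that start it in most other cells. MOS activates MEK1 and MEK2 (Map2k1 and Map2k2), which activate ERK kinases, among them ERK1 (Mapk3). ERK activates the RSK kinases, among them those of Rps6ka1, Rps6ka2 and Rps6ka3. The GV oocyte stores Mos mRNA with little MOS protein. The mRNA is polyadenylated and translated once meiosis resumes, and mouse eggs without Mos fail to hold the arrest in metaphase of the second division. In frog eggs RSK is a link between MOS and that arrest. The comparison asks how the stored transcripts of this cascade stood in GV oocytes without Lsd1.

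Totals ran from 10735422 to 13035045 counts in genes per library. Counts of Kdm1a were 47, 31 and 36 in the 3 Lsd1 KO libraries against 799, 962 and 492 in the 3 Control libraries, as labelled. Among 10 oocyte markers, each had counts in all 6 libraries, with summed levels of 32778 to 37124 CPM in Lsd1 KO against 22317 to 26288 CPM in Control. Gdf9, named after its values were seen, was the most abundant marker, at 14482 to 16950 CPM in Lsd1 KO against 5569 to 7015 CPM in Control. The log2 fold change was above 0 for 4 of the 10 oocyte markers, with a median of -0.14. Of these markers 2 were higher and none lower in Lsd1 KO by edgeR (2 higher and 2 lower at an unadjusted p under 0.05; 2 and none by DESeq2 and by limma-voom). The first principal component (53.9% of the variance) separated the genotypes, the second (15.2%) set Control replicate 3 apart and the third (14.8%) Lsd1 KO replicate 2. Of the markers of blood and immune cells, 10 were listed, and their summed level was 147, 14.8 and 101 CPM in Lsd1 KO replicates 1 to 3 and 32.5, 8.29 and 42.7 CPM in Control replicates 1 to 3. The hemoglobin genes Hbb-b1 and Hba-a1 had no count in any library. The sum over 10 granulosa cell markers was 360 to 465 CPM in Lsd1 KO against 126 to 146 CPM in Control. Cyp19a1, the aromatase gene, named after its values were seen, made up most of the Lsd1 KO sums, at 239 to 405 CPM in Lsd1 KO against 28.6 to 49.2 CPM in Control. Of the 9 granulosa markers tested, 7 had a log2 fold change above 0, with a median of 1.35, and so did 7 of the 7 tested blood and immune markers, with a median of 1.71. The 6 theca cell markers summed to 11.2 to 42.7 CPM in Lsd1 KO against 8.85 to 14.4 CPM in Control. Of the blood and immune markers 1 was higher by edgeR (2 at an unadjusted p under 0.05, 1 by DESeq2, none by limma-voom). Of the granulosa markers 2 were higher and 1 was lower by edgeR (4 and 1 at an unadjusted p under 0.05, 2 and 1 by DESeq2, 1 and 1 by limma-voom). None of 3 tested theca markers passed by edgeR (1 higher at an unadjusted p under 0.05 and by DESeq2, none by limma-voom). Over all genes tested, 21.3% passed by edgeR, 11% as higher and 10.3% as lower, and the median log2 fold change was -0.01.

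Levels are CPM, each gene's count as a share of its library's total (scaled to a fixed library size) after TMM normalisation, given as mean ± SD (n = 3 per genotype). Fold changes are Lsd1 KO over Control on the log2 scale, given ± SE, with 95% intervals in brackets where stated. Adjusted p values come from the quasi-likelihood test of edgeR, adjusted by Benjamini-Hochberg over the 12935 tested genes, and a gene passed at an adjusted p under 0.05. In these bulk samples a lower level can reflect fewer cells of a type or less RNA per cell, which cannot be told apart.

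Mos mRNA was lower in oocytes without Lsd1, and it was the member of the cascade that passed the test. The level of Mos was 164, 166 and 142 CPM in Lsd1 KO replicates 1 to 3, against 342, 323 and 333 CPM in Control replicates 1 to 3. The libraries of each genotype lay close together, and the highest Lsd1 KO library was below the lowest Control library by a wide margin. The means were 157 ± 13.0 CPM in Lsd1 KO against 333 ± 9.65 CPM in Control, with a log2 fold change of -1.08 ± 0.16 (adjusted p = 0.00102). The interval of the log2 fold change was [-1.43, -0.73], which on the linear scale is 0.370 to 0.604 of the Control level.

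The counts behind Mos were 2043, 1837 and 1585 in Lsd1 KO against 3697, 4283 and 3688 in Control. By its mean level Mos stood above 93.7% of the genes tested. Its fall was not extreme for this comparison, since 5.87% of the genes tested had a lower log2 fold change. Mos is a gene with 1 exon of 1449 bases on the minus strand of chromosome 4, from 3797804 to 3799252 in mm9 coordinates, and no annotated gene overlaps it. Without the libraries that stood apart, the log2 fold change was -1.14 (Lsd1 KO replicate 2 left out) or -1.09 (Control replicate 3 left out). With the summed immune marker level as a covariate, chosen after seeing the data, the log2 fold change was -1.07 ± 0.20 (edgeR adjusted p = 0.00646). The granulosa marker sum was higher in every Lsd1 KO library than in any Control library. Cyp19a1 made up most of the Lsd1 KO sums, and 7 of the 9 granulosa markers tested had a log2 fold change above 0 (median 1.35). By edgeR Cyp19a1 and Inha were called higher, and no other granulosa marker was. Nr5a2 was called lower, at 28.7 CPM in Lsd1 KO against 69.4 CPM in Control. The part of immune and granulosa cells in the Mos result was not tested.

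**Figure D1:**
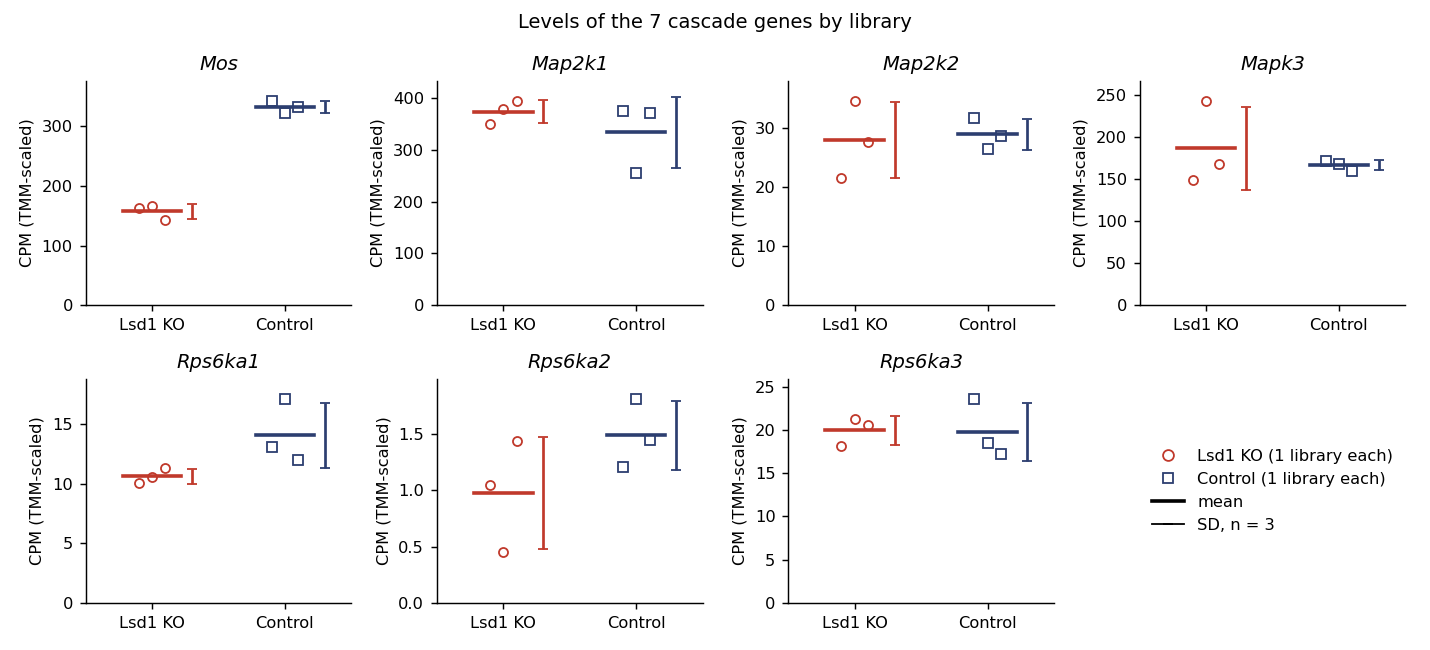
Level of each of the 7 genes in CPM (linear axes that start at 0) in the 3 Lsd1 KO libraries (circles) and the 3 Control libraries (squares), with the mean as a bar and the SD beside it. Mos lay at 142 to 166 CPM in Lsd1 KO against 323 to 342 CPM in Control, and 5 of the other 6 genes had groups that overlap, all but Rps6ka1.

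Among the 7 genes, 1 was lower, none was higher and 6 did not pass (none higher also at an unadjusted p under 0.05, by DESeq2 and by limma-voom). Of all genes tested, 21.3% passed in either direction, 11% as higher and 10.3% as lower, so 1 of 7 is near that background. The median log2 fold change was -0.05 over the 7 genes and -0.01 over all genes tested. The groups did not overlap for 2 of the 7, Mos and Rps6ka1, both lower in Lsd1 KO. The groups did not overlap for 38.7% of all genes tested, with Lsd1 KO lower for 19.1% and higher for 19.5%.

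The MEK genes, which take the signal from MOS to ERK, did not pass. Map2k1 was at 349, 378 and 393 CPM in Lsd1 KO against 374, 255 and 372 CPM in Control. The Lsd1 KO libraries lay together, and Control replicate 2 was the low library of its group, while the other Control libraries were within the Lsd1 KO range. The means were 374 ± 22.4 CPM in Lsd1 KO against 334 ± 68.0 CPM in Control, with a log2 fold change of 0.16 ± 0.19 and interval [-0.24, 0.57] (edgeR adjusted p = 0.572). Without Control replicate 2 the log2 fold change of Map2k1 was 0.02.

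Map2k2, the gene of MEK2, was at 21.6, 34.5 and 27.7 CPM in Lsd1 KO against 31.7, 26.5 and 28.6 CPM in Control. The Control libraries all fell within the range of the Lsd1 KO libraries. The means were 28.0 ± 6.45 CPM in Lsd1 KO against 29.0 ± 2.62 CPM in Control, with a log2 fold change of -0.05 ± 0.22 and interval [-0.52, 0.42] (edgeR adjusted p = 0.893). Map2k1 therefore carried most of the MEK transcripts in both genotypes. Per base of exon, its share of Map2k1 plus Map2k2 was 94.7%, 92.3% and 94.0% in Lsd1 KO against 92.8%, 91.3% and 93.4% in Control. The means were 93.6% ± 1.20 in Lsd1 KO against 92.5% ± 1.08 in Control, and the shares overlapped (difference of 1.11 percentage points, exact permutation p = 0.3, two-sided, where the smallest p that 3 against 3 allows is 0.1). The summed per-length MEK level was 109, 121 and 123 CPM per kb in Lsd1 KO and 119, 82.3 and 117 CPM per kb in Control.

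Map2k1 (chromosome 9, 64033577 to 64101438, minus strand) overlaps Uchl4 on the opposite strand, at 10.4 CPM in Lsd1 KO against 22.3 CPM in Control. The sources used here do not say whether counting used strand, so reads of this pair may not be fully separated, but Uchl4 was far less abundant than Map2k1. Map2k2 lies on the plus strand of chromosome 10, from 80568660 to 80587442, and no annotated gene overlaps it.

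Mapk3, the ERK1 kinase, was at 149, 243 and 168 CPM in Lsd1 KO against 172, 168 and 160 CPM in Control. The Control libraries were close to each other, and Lsd1 KO replicate 2, which also stood apart on the third principal component, was the high library of its group. The means were 187 ± 49.5 CPM in Lsd1 KO against 167 ± 5.94 CPM in Control, with a log2 fold change of 0.16 ± 0.20 and interval [-0.27, 0.59] (edgeR adjusted p = 0.599). Without Lsd1 KO replicate 2 the estimate for Mapk3 changed sign, to -0.10. The gene lies on the plus strand of chromosome 7, from 133903115 to 133909333, and no annotated gene overlaps it.

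The RSK genes among the members, whose kinases ERK activates, were the least abundant of them. Rps6ka1 (RSK1) was at 10.02, 10.6 and 11.3 CPM in Lsd1 KO against 13.0, 17.1 and 12.0 CPM in Control. All Lsd1 KO libraries lay below all Control libraries, but the gap between the groups was small beside the spread within Control. The means were 10.6 ± 0.648 CPM in Lsd1 KO against 14.1 ± 2.69 CPM in Control, with a log2 fold change of -0.40 ± 0.26 [-0.98, 0.17], which did not pass (edgeR adjusted p = 0.302). Rps6ka1 lies on the minus strand of chromosome 4, from 133403205 to 133443712, and 4 other annotated genes overlap it. They are Gm17623 (protein coding), Gm12977 (a processed transcript), Gm12985 (a pseudogene) and a U6 snRNA, and none is among the symbols counted.

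Rps6ka3 (RSK2, an X-linked gene) was at 18.1, 21.3 and 20.6 CPM in Lsd1 KO against 23.6, 18.5 and 17.3 CPM in Control, and the groups overlapped throughout. The means were 20.0 ± 1.66 CPM in Lsd1 KO against 19.8 ± 3.36 CPM in Control, with a log2 fold change of 0.02 ± 0.23 and interval [-0.47, 0.50] (edgeR adjusted p = 0.968). Its locus is on the plus strand of chromosome X from 155648239 to 155806176.

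Rps6ka2 (RSK3) was close to the limit of detection, with 13, 5 and 16 counts in Lsd1 KO against 13, 24 and 16 counts in Control. Its level was 1.04, 0.451 and 1.44 CPM in Lsd1 KO against 1.20, 1.81 and 1.45 CPM in Control, with overlap between the groups. The log2 fold change was -0.60 ± 0.63 [-1.97, 0.77] (edgeR adjusted p = 0.532). On the linear scale the interval ran from 0.255 to 1.70 of the Control level, which includes a change of the size seen for Mos. The gene lies on the plus strand of chromosome 17, from 7374464 to 7507662.

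**Figure D2:**
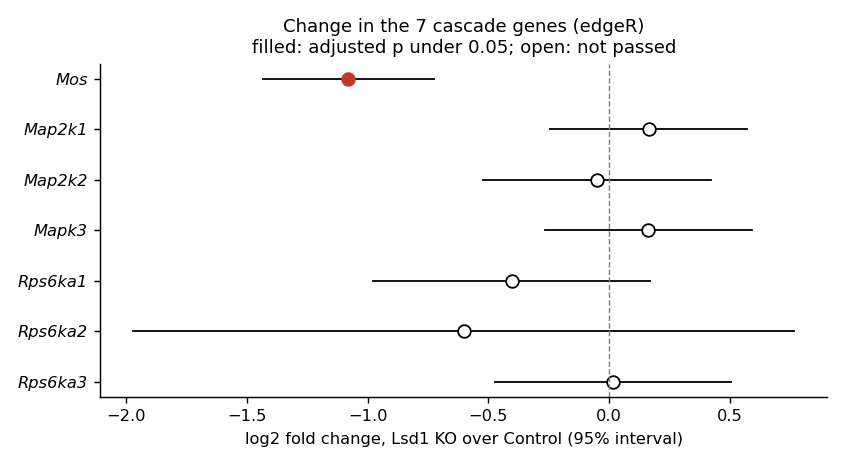
Log2 fold change of each gene, Lsd1 KO over Control (points), with its 95% interval from edgeR (lines). The interval of Mos, -1.43 to -0.73, lies below 0, those of the other 6 genes include 0, and that of Rps6ka2 is the widest.

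Among Rps6ka1, Rps6ka2 and Rps6ka3, the first and the last gave nearly all of the summed per-length level. Rps6ka6 (RSK4), named here after its values were seen, is not a member and was left out of these sums and shares. It was more abundant than these genes, at 105, 110 and 89.8 CPM in Lsd1 KO against 82.2, 60.4 and 97.5 CPM in Control. Its groups overlapped, and it did not pass (log2 0.35 ± 0.20, edgeR adjusted p = 0.243). The share of Rps6ka1 was 49.9%, 48.4% and 49.4% in Lsd1 KO against 50.1%, 61.3% and 54.8% in Control. The Lsd1 KO libraries were within a narrow range, while Control replicate 2 was the high library. The share of Rps6ka2 was 3.89%, 1.55% and 4.70% in Lsd1 KO against 3.47%, 4.86% and 4.94% in Control, a difference of -1.04 percentage points that was within the spread of the libraries (exact permutation p = 0.5, two-sided, smallest possible p of 0.1). Without Lsd1 KO replicate 2 that difference was -0.125 percentage points. The summed per-length level of Rps6ka1, Rps6ka2 and Rps6ka3 was 4.71, 5.12 and 5.38 CPM per kb in Lsd1 KO. In Control it was 6.11, 6.55 and 5.15 CPM per kb, with overlap.

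Levels of different genes were compared per kb of annotated exon, since longer transcripts give more counts. On this scale Mos was at 109 ± 8.97 CPM per kb in Lsd1 KO and 229 ± 6.66 CPM per kb in Control. Map2k1 was at 110 ± 6.61 CPM per kb in Lsd1 KO and 98.4 ± 20.1 CPM per kb in Control, and Mapk3 at 86.2 ± 22.9 CPM per kb in Lsd1 KO and 77.1 ± 2.75 CPM per kb in Control. Mos was level with Map2k1 in Lsd1 KO and above it without overlap in Control. Mos was above Mapk3 in each library of both genotypes, and the ranges of the pair overlapped in Lsd1 KO only through the high Mapk3 level of replicate 2, at 112 CPM per kb. The per-length ratio of Mos to Map2k1 was 1.097, 1.02 and 0.846 in Lsd1 KO against 2.14, 2.96 and 2.10 in Control. The ratio of Mos to Mapk3 was 1.64, 1.02 and 1.26 in Lsd1 KO against 2.97, 2.86 and 3.10 in Control.

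Below these genes the order was the same in both genotypes. Map2k2 was at 7.52 ± 1.73 CPM per kb in Lsd1 KO and 7.78 ± 0.703 CPM per kb in Control. Its mean was 11.5 times lower than that of Mapk3 in Lsd1 KO against 9.91 times lower in Control, and the ranges did not overlap. Rps6ka1 (2.50 ± 0.152 CPM per kb in Lsd1 KO and 3.30 ± 0.632 CPM per kb in Control) and Rps6ka3 (2.40 ± 0.199 CPM per kb in Lsd1 KO and 2.37 ± 0.404 CPM per kb in Control) had overlapping ranges in each genotype. Rps6ka2 came last in both, at 0.172 ± 0.0874 CPM per kb in Lsd1 KO and 0.262 ± 0.0537 CPM per kb in Control. Map2k1 and Mapk3 also overlapped in each genotype.

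**Figure D3:**
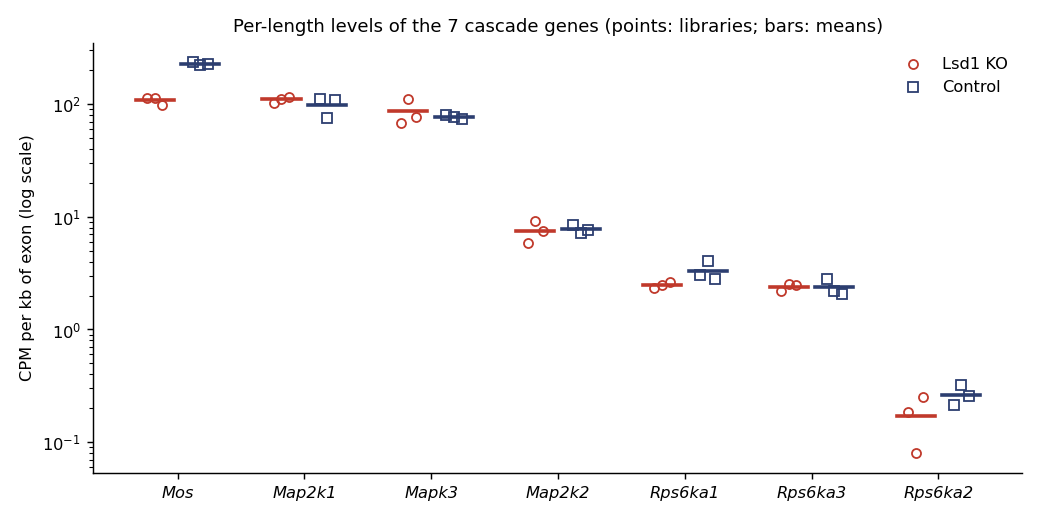
Per-length level of each gene (log axis, CPM per kb of exon) in the 3 Lsd1 KO libraries (circles) and the 3 Control libraries (squares), with bars for the means. In Lsd1 KO Mos (109 CPM per kb) lay beside Map2k1 (110 CPM per kb), and in Control it lay above all other members, at 229 CPM per kb.

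The profile of Mos over the 6 libraries was compared with that of every other tested gene of at least 10 CPM, by the root mean square difference of log2 CPM after each gene's own mean was subtracted. The 5 nearest were Tlk2, a kinase that acts on histone chaperones (0.07), Zc3h6, a zinc-finger gene (0.07), Fpgt, an enzyme of fucose salvage (0.09), the retinoid receptor Rxra (0.10) and Iqca (0.10). Tlk2 was at 78.0, 70.2 and 68.6 CPM in Lsd1 KO against 158, 156 and 157 CPM in Control. Like Mos, these genes sat near 50% of the Control level in Lsd1 KO, with ratios of means from 0.460 for Tlk2 to 0.521 for Fpgt and 0.473 for Mos. They were chosen for this pattern, so no test is given. The other members of the cascade were farther from Mos, at 0.41 for Rps6ka1 to 0.66 for Map2k1, and 23.0% to 64.4% of the genes compared were nearer.

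**Figure D4:**
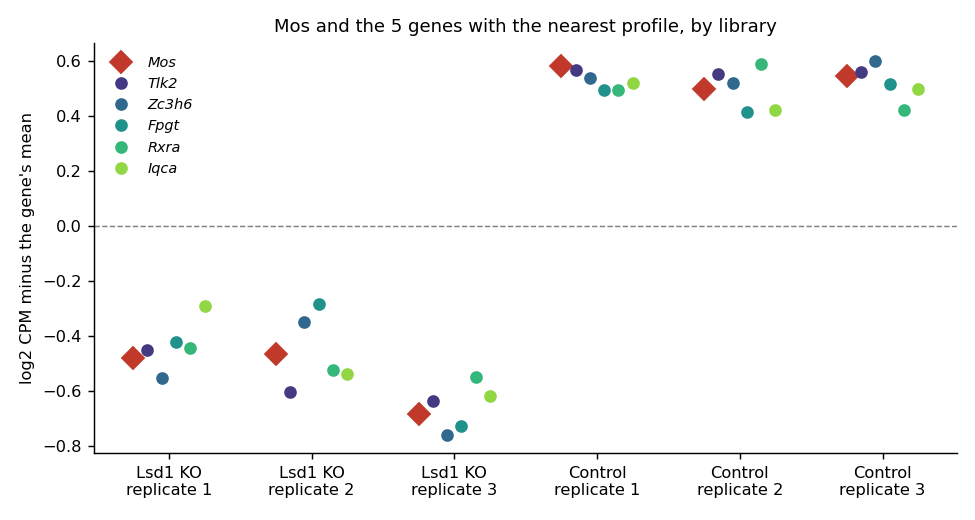
Log2 CPM in each library minus the gene's own mean over the 6 libraries, for Mos (diamonds) and the 5 genes with the nearest profile (circles). All 6 genes lie below 0 in the 3 Lsd1 KO libraries and above 0 in the 3 Control libraries, since the genes were chosen for likeness to Mos.

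Around the cascade, 51 genes that act before, beside or after these kinases were listed by role, and 46 were tested. Of these 3 were higher, 7 were lower and 36 did not pass (3 higher and 6 lower by DESeq2 and by limma-voom). The share that passed, 21.7%, was near the 21.3% of all genes tested, and the median log2 fold change was 0.03 against -0.01 over all genes tested. Leaving out Lsd1 KO replicate 1 left 1 lower, leaving out Lsd1 KO replicate 3 left 4, and leaving out Control replicate 3 left 3. There were 4 lower with the immune marker covariate. Of 6 RAS and RAF genes, the upstream switch and kinases of the cascade in other cells, 1 was lower, none was higher and 5 did not pass (none higher also at an unadjusted p under 0.05 and by the other tools).

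Among scaffolds and inhibitors of the step from RAF to ERK, 1 gene was higher and 2 were lower of 8 tested, and 5 did not pass. Spred1, a membrane protein that holds back RAF activation, was at 10.3, 17.8 and 13.2 CPM in Lsd1 KO against 26.4, 35.3 and 27.0 CPM in Control. All Lsd1 KO libraries lay below all Control libraries, and Spred1 fell by 1.11 ± 0.25 on the log2 scale (edgeR adjusted p = 0.00946), a call lost without Lsd1 KO replicate 1 (adjusted p = 0.0521). Spry4, a Sprouty inhibitor of receptor signalling to ERK, was at 206, 249 and 180 CPM in Lsd1 KO against 369, 341 and 775 CPM in Control. The groups did not overlap, and Control replicate 3 was far above its group. Spry4 fell by 1.22 ± 0.29 on the log2 scale (edgeR adjusted p = 0.0102), and by 0.76 without Control replicate 3, still past the threshold (adjusted p = 0.0479).

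Lamtor3, also called MP1, a scaffold that binds MEK1 and ERK1, moved the other way, at 164, 159 and 154 CPM in Lsd1 KO against 106, 88.8 and 85.6 CPM in Control. It rose by 0.77 ± 0.17 on the log2 scale without overlap (edgeR adjusted p = 0.00748), and passed with each single library left out. Pebp1 had the highest mean of this role over the 6 libraries, although Spry4 was higher in Control. It was at 439, 484 and 450 CPM in Lsd1 KO against 391, 378 and 217 CPM in Control. The groups did not overlap, but Pebp1 did not pass (log2 0.48 ± 0.22, edgeR adjusted p = 0.139), and its log2 fold change was 0.24 without Control replicate 3.

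Of 5 tested phosphatases that act on ERK, 2 were lower, none was higher and 3 did not pass (1 higher at an unadjusted p under 0.05, none by DESeq2 or limma-voom). Dusp7, the most abundant of them and a phosphatase known to act in mouse oocyte meiosis, was at 341, 433 and 337 CPM in Lsd1 KO against 508, 573 and 744 CPM in Control. It fell by 0.71 ± 0.20 on the log2 scale without overlap (edgeR adjusted p = 0.0214). Dusp1, an immediate-early phosphatase of MAP kinases, was at 102, 70.3 and 139 CPM in Lsd1 KO against 141, 204 and 263 CPM in Control, where Lsd1 KO replicate 3 and Control replicate 1 nearly met. It fell by 0.96 ± 0.27 on the log2 scale (edgeR adjusted p = 0.0233).

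Among other kinases that ERK activates, 1 of 4 tested was lower, none was higher and 3 did not pass (none higher also at an unadjusted p under 0.05 and by the other tools). Mknk1, which phosphorylates the cap-binding factor eIF4E, was at 72.2, 86.8 and 75.0 CPM in Lsd1 KO against 120, 103 and 154 CPM in Control. The groups did not overlap, and Mknk1 fell by 0.68 ± 0.19 on the log2 scale (edgeR adjusted p = 0.0238). The calls of Dusp7 and Mknk1 were lost when Control replicate 3 or either of Lsd1 KO replicates 1 and 3 was left out (edgeR adjusted p of at most 0.108 and 0.113) and with the immune marker covariate (0.0783 and 0.0565). The call of Dusp1 was lost without Lsd1 KO replicate 1 or 2 or Control replicate 2 or 3 (up to 0.0775).

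Cytoplasmic polyadenylation, the process that turns on stored mRNAs such as that of Mos, gave 2 higher, 1 lower and 10 not passed of 13 tested. Parn, a deadenylase that shortens poly(A) tails, was at 177, 158 and 137 CPM in Lsd1 KO against 50.5, 58.2 and 74.8 CPM in Control. The groups were far apart, with a rise of 1.36 ± 0.20 on the log2 scale (edgeR adjusted p = 7.86e-04). Cpsf2, a subunit of the cleavage and polyadenylation factor, was at 118, 169 and 113 CPM in Lsd1 KO against 71.6, 63.5 and 95.5 CPM in Control, a rise of 0.80 ± 0.22 (edgeR adjusted p = 0.0205) that did not pass without Lsd1 KO replicate 2, Control replicate 1 or Control replicate 2 (up to 0.0890).

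Msi2, a Musashi protein that binds mRNAs to control their translation, was at 13.6, 3.34 and 16.0 CPM in Lsd1 KO against 15.6, 24.0 and 108 CPM in Control. The groups overlapped, and Control replicate 3 alone held most of the Control signal. It fell by 2.16 ± 0.65 on the log2 scale (edgeR adjusted p = 0.0338). It did not pass by DESeq2 or limma-voom (adjusted p = 0.0995 and 0.0778) or without any 1 Lsd1 KO replicate or Control replicate 3, where the log2 fold change was -0.87 (adjusted p = 0.231).

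Eif4enif1, a repressor that binds eIF4E, had the highest mean of this role over the 6 libraries, although not in Control alone. It was at 931 ± 58.2 CPM in Lsd1 KO against 849 ± 99.5 CPM in Control and did not pass (log2 0.13 ± 0.17, edgeR adjusted p = 0.617). Cpeb1, the protein that binds the cytoplasmic polyadenylation element and acts on Mos mRNA, is named here after its values were seen. It was at 881, 988 and 754 CPM in Lsd1 KO against 884, 907 and 853 CPM in Control. The groups overlapped, with a log2 fold change of -0.01 ± 0.17 and interval [-0.38, 0.36] (edgeR adjusted p = 0.969).

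Of 9 tested genes whose proteins the cascade phosphorylates or controls, none passed (none higher and 1 lower at an unadjusted p under 0.05, and none by DESeq2 or limma-voom). Spin1, a meiotic spindle protein phosphorylated in the MOS pathway, was the most abundant, at 9601, 10280 and 9777 CPM in Lsd1 KO against 10299, 8796 and 10173 CPM in Control. The groups overlapped, with a log2 fold change of 0.02 ± 0.17 and interval [-0.35, 0.39] (edgeR adjusted p = 0.950).

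**Figure D5:**
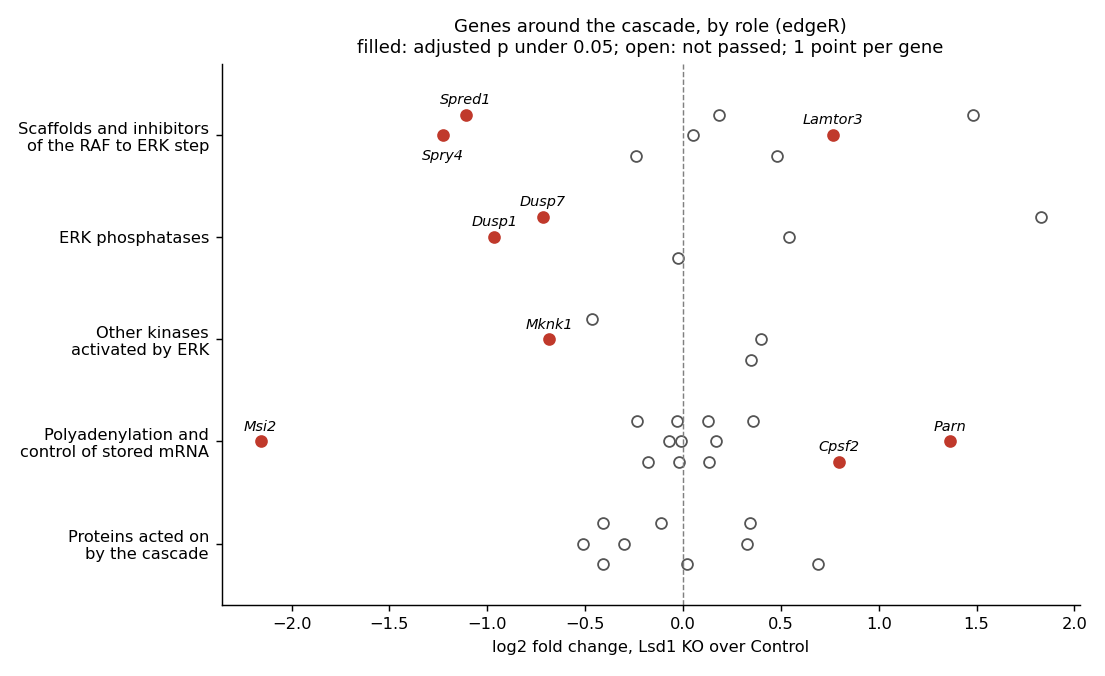
Log2 fold change, Lsd1 KO over Control, of each tested gene in 5 roles around the cascade, 1 point per gene, with filled points for genes past the threshold. Spred1, Spry4, Dusp1, Dusp7, Mknk1 and Msi2 lie left of 0, Lamtor3, Cpsf2 and Parn lie right of it, and no gene of the lowest role is filled.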

How the data were processed

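The deposited files give raw read counts per gene for each of the 6 samples. The mm9 genome, HTSeq 0.5.3p9, TopHat2 2.0.7 and CASAVA 1.8.2 are named, with no role given, in the submitters' processing notes. The sources used here do not give the counting options or the annotation. Per the labels' protocols, oocytes were lysed directly, RNA was amplified with the NuGEN Ovation system and libraries were paired-end.

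Genes were filtered with filterByExpr (minimum count 10), scaled by TMM and tested with edgeR 4.0.16 in R 4.3.3 (quasi-likelihood F test, two-sided). SEs and intervals were derived from the F statistic. The test was also tried on simulated data. Positions and exon lengths came from GENCODE M1 on NCBIM37, the assembly of mm9. Alternatives included DESeq2 1.42.0, limma 3.58.1 (voom), other scalings and filters, a replicate block, a length and GC correction (loess, span 0.5) and leaving out each library. An immune marker covariate was added after seeing the data.

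The members and lists were chosen with earlier results of these data known. Named were the 7 members, listed genes past the threshold, the most abundant gene of each role and the 5 genes nearest to Mos. For 3 listed genes that this rule would name, values are not reported here. Pseudogene copies of the members were not examined.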

Additional observations from a re-analysis of the deposited data

How the results depend on the processing

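Mos kept its direction and its call in all 16 alternative fits, with a log2 fold change of -1.34 (length and GC correction) to -0.98 (without Lsd1 KO replicate 3) and an adjusted p of at most 0.00871, so it also passed at 0.01. The other 6 members did not pass in any fit that tested them, and Rps6ka2 was not tested under the filter of 10 CPM in 3 libraries. Estimates near 0 changed sign. Map2k2 was at log2 0.011 under that filter and 0.061 with the immune marker covariate. With 1 library left out, the log2 fold change ran from -0.25 to 0.13 for Map2k2, -0.10 to 0.33 for Mapk3, -0.52 to -0.22 for Rps6ka1, -0.95 to -0.29 for Rps6ka2, -0.085 to 0.14 for Rps6ka3 and -0.037 to 0.068 for Spin1. The difference in share ran from 0.512 to 1.77 percentage points for Map2k1 and from -1.70 to -0.125 for Rps6ka2. Fewer genes passed with the immune marker covariate (904 higher and 722 lower in all, 4 lower around the cascade) and at an adjusted p under 0.01 (676 higher, 497 lower, 1 lower around the cascade), against 1421 higher, 1329 lower and 7. With 1 library left out these counts ran from 932 to 1466 higher, 638 to 1346 lower and 1 to 7 lower around the cascade. The drop at 0.01 follows from the threshold, and the cause of the others was not tested.

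Samples share replicate numbers in the labels, but deviations of same-numbered libraries correlated at -0.03, 0.11 and -0.02, so the numbers were not taken to pair them. With a replicate block Mos was at -1.08 (adjusted p = 0.00346), 1270 genes were higher and 1098 lower, and 3 higher and 6 lower around the cascade. The members and the listed genes that the naming rule gives kept their side of the threshold. Rps6ka2 rests on 5 to 24 counts per library.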
